A study of Mus musculus with 12 samples.

Results

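The genes described here are 10 of the 24255 in the deposited expression table, those for the kinase CDK1, its partners and direct regulators, and the factors that hold the mature egg in metaphase II. They were chosen by name, as Cdk1, the cyclin B genes Ccnb1 and Ccnb2, the CDK-binding subunits Cks1b and Cks2, the phosphatase gene Cdc25b, the inhibitory kinase gene Wee2, the phosphatase inhibitor gene Arpp19, the MAPK pathway kinase gene Mos, and Fbxo43. Their levels were read in RNA-Seq libraries of germinal vesicle (GV) oocytes, the immature oocytes still held in meiotic prophase. The study asked how loss of function of Dpagt1, which encodes the enzyme that starts the synthesis of the sugar precursor for protein N-glycosylation, alters the oocyte.

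All libraries came from C57BL/6 females of 3 weeks, given 5 IU of PMSG (pregnant mare serum gonadotropin) 46 h before collection. WT oocytes came from wild-type females. MUT oocytes came from females with the missense change D166G in Dpagt1, which arose by ENU mutagenesis and is carried in all cells of the body. GcKO oocytes came from Dpagt1F/F Gdf9CRE/+ females, in which the oocyte promoter Gdf9 drives Cre and the oocyte itself loses floxed Dpagt1. AmcKO oocytes came from Dpagt1F/F Amhr2CRE/+ females, in which Cre acts in granulosa cells, so the oocyte keeps the gene. Each group had 3 libraries of 20 pooled oocytes, and no group of floxed females without Cre is among them. The labels do not say whether the libraries of a group came from separate females, so the p-values measure the spread between libraries, which may be technical.

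The fully grown oocyte stores maternal mRNA while it rests in prophase with CDK1 inactive. WEE2, an oocyte kinase, holds CDK1 off by phosphorylation, and CDC25B removes that phosphate when meiosis resumes. Cyclin B then keeps CDK1 active through the meiotic divisions, phosphorylated ARPP19 restrains the phosphatase PP2A-B55 that would reverse the work of CDK1, and MOS (through the MAPK cascade) and FBXO43, also called EMI2 (an inhibitor of the anaphase-promoting complex, APC/C), keep cyclin B from destruction until fertilization. Much of this control acts on translation and on proteins, which RNA levels do not show.

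Promoters of these genes are shown because cell cycle genes are known for promoters with CCAAT boxes and CHR elements (cell cycle genes homology regions). The reference promoters of RefSeq (GRCm38.p6) were available for 8 of the 10 members, Mos and Fbxo43 not among them. Each stretch below runs 5′ to 3′ on the strand of the gene from 250 bases before to 30 bases after the transcript start. Capitals mark CCAAT or its complement ATTGG, and the CHR letters TTTGAA, their complement TTCAAA, or TTTAAA.
Cdk1, chr10:69352883-69353162, reverse strand: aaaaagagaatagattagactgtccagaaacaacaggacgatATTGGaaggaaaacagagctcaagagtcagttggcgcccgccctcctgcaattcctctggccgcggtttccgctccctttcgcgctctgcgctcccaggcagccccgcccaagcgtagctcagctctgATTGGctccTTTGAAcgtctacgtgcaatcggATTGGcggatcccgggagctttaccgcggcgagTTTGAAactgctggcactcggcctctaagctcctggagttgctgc
Ccnb1, chr13:100786457-100786736, reverse strand: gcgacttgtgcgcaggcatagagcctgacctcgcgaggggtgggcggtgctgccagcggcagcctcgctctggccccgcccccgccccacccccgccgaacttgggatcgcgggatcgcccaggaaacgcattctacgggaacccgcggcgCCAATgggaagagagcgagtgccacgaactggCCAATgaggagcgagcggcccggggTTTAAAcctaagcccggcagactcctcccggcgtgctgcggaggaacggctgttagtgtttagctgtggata
Ccnb2, chr9:70421525-70421804, reverse strand: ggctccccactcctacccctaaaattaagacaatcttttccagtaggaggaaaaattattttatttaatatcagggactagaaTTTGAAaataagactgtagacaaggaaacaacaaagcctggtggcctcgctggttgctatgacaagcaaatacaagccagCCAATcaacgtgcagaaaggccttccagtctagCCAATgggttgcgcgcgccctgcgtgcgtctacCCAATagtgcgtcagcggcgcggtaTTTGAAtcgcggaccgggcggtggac
Cks1b, chr3:89418262-89418541, reverse strand: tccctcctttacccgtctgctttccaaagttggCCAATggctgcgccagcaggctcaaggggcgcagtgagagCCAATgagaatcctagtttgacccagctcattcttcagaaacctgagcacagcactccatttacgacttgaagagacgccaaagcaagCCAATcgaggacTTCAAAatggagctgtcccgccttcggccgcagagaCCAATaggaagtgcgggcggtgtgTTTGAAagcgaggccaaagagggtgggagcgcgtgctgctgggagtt
Cks2, chr13:51644982-51645261, forward strand: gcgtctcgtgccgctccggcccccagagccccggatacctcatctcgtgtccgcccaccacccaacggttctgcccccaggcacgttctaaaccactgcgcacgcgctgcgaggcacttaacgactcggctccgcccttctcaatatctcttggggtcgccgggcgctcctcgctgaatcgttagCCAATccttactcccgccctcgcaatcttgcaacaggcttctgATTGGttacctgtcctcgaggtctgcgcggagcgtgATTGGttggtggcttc
Wee2, chr6:40442613-40442892, forward strand: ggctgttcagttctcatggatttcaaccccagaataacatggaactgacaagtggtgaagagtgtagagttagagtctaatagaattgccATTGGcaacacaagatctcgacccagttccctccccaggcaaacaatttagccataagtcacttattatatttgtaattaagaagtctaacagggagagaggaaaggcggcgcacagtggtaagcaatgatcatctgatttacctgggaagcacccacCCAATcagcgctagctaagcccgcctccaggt
Cdk1 held 3 CCAAT boxes, Ccnb1 2, Ccnb2 3, Cks1b 4, Cks2 3 and Wee2 2, while at least 1 box was found in 36.1% and at least 2 boxes in 11.1% of all 32851 promoters searched in the same window. CHR letters were found in the windows of Cdk1, Ccnb1, Ccnb2 and Cks1b, and in 26.7% of all promoters. Of the members not printed, Cdc25b held 1 CCAAT box and no CHR letters, and neither of the 2 windows of Arpp19 held either motif. Cdk1, Ccnb1, Ccnb2 and Cks1b held both motifs, as did 10.0% of all promoters. Of these members Ccnb1 and Cks1b passed the test described further on in MUT and GcKO against WT, and Cdk1 and Ccnb2 did not. The RefSeq start of Wee2 lies inside the GENCODE gene, close to the start in the deposited table. A match is a description of letters and not of a bound factor, and its part in the levels below was not tested.

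The authors deposited FPKM values (fragments scaled by transcript length and by the mapped fragments of the library, possibly with a further scaling between libraries). Levels can be compared between genes only as far as the lengths used hold, and these are not given. The transcripts of Cks1b and Cks2 are short (849 and 692 nt in GENCODE), and parts of Ccnb1 and Cks2 also occur in other genes. In WT oocytes the order of the members by mean FPKM was Cks1b (3150 ± 156, SD, n = 3), Cks2 (3060 ± 294), Mos (1172 ± 256), Ccnb1 (787 ± 116), Arpp19 (210.2 ± 14.2), Ccnb2 (115.9 ± 21.4), Wee2 (112.3 ± 9.52), Cdk1 (30.9 ± 2.04), Fbxo43 (12.5 ± 2.54) and Cdc25b (0.955 ± 0.274). The ranges of Cks1b and Cks2 overlapped, as did those of Ccnb2 and Wee2, and all other neighbours in this order were apart. The mRNA of the kinase itself was thus far less abundant than that of cyclin B1. In MUT and GcKO oocytes the lower part of this order differed, with Fbxo43 (24.5 ± 3.89 and 21.2 ± 1.56 FPKM) at or above Cdk1 (19.7 ± 2.67 and 20.2 ± 5.32 FPKM), although the ranges of these 2 genes overlapped in both groups.

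Library-wide features differed between the groups and bear on every value below. Summed FPKM per library was highest in WT (1167362 to 1226005), lower in AmcKO (883256 to 1107925), and lower still in GcKO (482314 to 684212) and MUT (589617 to 611597), which overlapped, and fewer genes were above 0 in WT (9359 to 9622) than in MUT (11208 to 11467), GcKO (10733 to 11608) and AmcKO (10399 to 10921). The sum over the 10 members was lower along with the total (WT 8163 to 9101 FPKM, AmcKO 6371 to 7916, MUT 4422 to 4865, GcKO 3305 to 5128), so their share of that total was much alike, at 0.699% to 0.742% for WT, 0.715% to 0.725% for AmcKO, 0.750% to 0.795% for MUT and 0.685% to 0.792% for GcKO. All 10 oocyte markers examined were present in every library. Of 13 granulosa cell markers, 4 (Foxl2, Amhr2, Amh and Lhcgr) were at 0 in every library and 7 were under 1 FPKM throughout; their summed level, most of it Cyp19a1, overlapped between groups (17.6 to 23.1 FPKM for WT, 14.7 to 27.2 for MUT, 15.1 to 28.9 for GcKO, 11.5 to 22.7 for AmcKO). Of these markers Inha (1.13 to 5.45 FPKM) and Hsd17b1 (0.642 to 3.09 FPKM) passed the test in MUT against WT, where both were at 0, and their part in the results below was not tested. Dpagt1 itself had a listed value of 0 in all WT and AmcKO libraries, and of 0.878, 0.408 and 0.985 FPKM in MUT and 0, 0.366 and 0 FPKM in GcKO, so its level does not check the labels. Fewer oocytes of a kind and less RNA per oocyte cannot be told apart in pooled libraries.

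**Figure D1:**
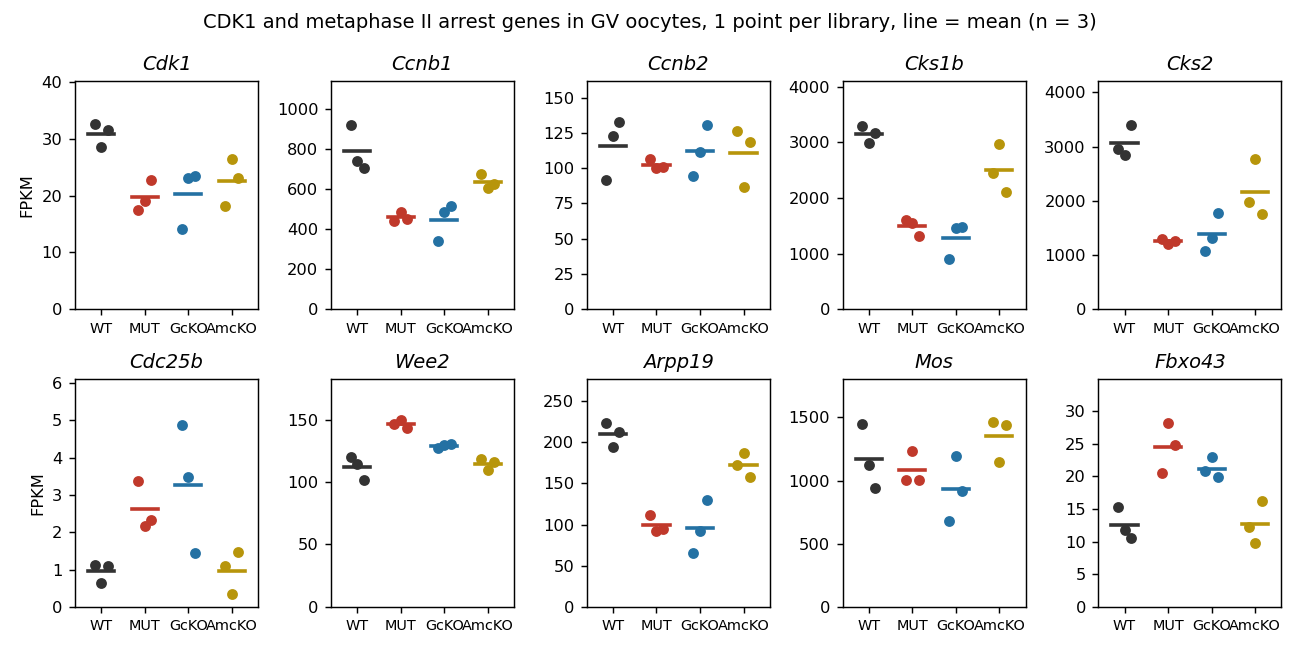
FPKM of the 10 genes in each library as deposited (vertical axis, linear and from 0, on a scale of its own for each gene), with 1 point per library, the mean of 3 libraries as a line, and the groups WT, MUT, GcKO and AmcKO along the horizontal axis. The MUT and GcKO points of Cks1b, Cks2, Arpp19 and Ccnb1 lie below all WT points, those of Fbxo43 (19.9 to 28.2 FPKM) lie above all WT points (10.5 to 15.4 FPKM), and those of Ccnb2 and Mos overlap the WT points, with GcKO values of Mos at 678 and 917 FPKM below the lowest WT value (942 FPKM).

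A total of 6 members differed between MUT and WT oocytes in limma's test on log2(FPKM + 1) across 11233 genes, 4 of them lower (Ccnb1, Cks1b, Cks2 and Arpp19) and 2 higher (Wee2 and Fbxo43). In GcKO oocytes 5 differed from WT, the same 4 lower and Fbxo43 higher. Among all genes tested, 11.3% were lower and 9.46% higher in MUT, and 11.4% were lower and 8.71% higher in GcKO. No member passed in AmcKO against WT, where 0.116% of all genes were lower and 0.0979% higher, although 1 member, Cks2, had an unadjusted p under 0.05. No member passed in GcKO against MUT either, and none had an unadjusted p under 0.05, with 0.134% of all genes lower and 0.0712% higher in GcKO. Over the 10 members the log2 fold changes against WT had a median of -0.40 in MUT and -0.48 in GcKO, beside 0.12 over all genes in each, and -0.18 in AmcKO beside 0.03. All members but Cdc25b had a mean of at least 5 FPKM. Among the 4759 genes at that level the median was -0.12 in MUT and -0.16 in GcKO. In a fit on these genes alone, 1362 were lower and 760 higher in MUT, and 1397 and 705 in GcKO. The comparisons with WT share the WT libraries, so likeness between them is not independent evidence.

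By the raw values, the 3 MUT libraries lay wholly below the 3 WT libraries for 5 members (Cdk1 besides the 4 called) and wholly above them for 3 (Cdc25b besides the 2 called), beside 16.9% and 20.2% of all genes. For GcKO the same counts were 5 and 3, beside 16% and 18.2%. AmcKO lay wholly below WT for 5 members and above it for 0, beside 8.61% and 9.22%, although none of these passed the test. Against AmcKO, MUT lay below for 4 and above for 3 (14.4% and 14% of all genes), and GcKO below for 3 and above for 2 (11.6% and 12%). Between GcKO and MUT only Wee2 was apart, lower in GcKO, beside 6.87% of all genes below and 6.42% above.

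The kinase transcript, Cdk1 (chr10:69335146-69352938, reverse strand of GRCm38), was read at 32.6, 28.6 and 31.6 FPKM in WT, at 17.5, 19.0 and 22.7 in MUT, at 14.1, 23.1 and 23.5 in GcKO and at 18.1, 26.5 and 23.0 in AmcKO. Every library of the 3 other groups lay below every WT library. The log2 difference from WT was -0.63 ± 0.22 (SE) in MUT with an adjusted p of 0.0606 by limma, -0.62 ± 0.22 in GcKO with 0.0649 and -0.45 ± 0.22 in AmcKO with 0.339, so none passed at 0.05 in the fit over all tested genes. The 95% intervals, not adjusted for the number of genes, ran from -1.14 to -0.12, from -1.13 to -0.11 and from -0.97 to 0.06. Cdk1 did pass among the genes with a mean FPKM of at least 5, with an adjusted p of 0.0308 in MUT and 0.0333 in GcKO, in MUT with the 2 groups alone (0.0247), and in both after a length correction chosen after seeing the data (0.0198 and 0.0181). With the 2 groups alone Cdk1 did not pass in GcKO (0.137). Of the 6 fits in MUT that leave out a library, Cdk1 passed in 0, with adjusted p from 0.0745 to 0.164. In GcKO it passed in 1 of 6, without GcKO replicate 3 (0.0492), and the largest adjusted p was 0.233. With libraries set to the same FPKM sum the sign turned, to 0.33 in MUT and 0.38 in GcKO (adjusted p = 0.204 and 0.142, limma). Cdk1 did not pass on quantile-normalized values (0.161 and 0.188) or without a variance trend (0.0910 and 0.0950). Nor did it pass after an abundance correction, also chosen after seeing the data (0.0818 and 0.113).

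The transcript of cyclin B1, the main cyclin partner of CDK1 in oocytes, was abundant and fell in both MUT and GcKO oocytes. Ccnb1 (chr13:100778650-100786570, reverse strand) had 919, 739 and 703 FPKM in WT, 439, 484 and 450 in MUT, 338, 487 and 517 in GcKO and 673, 603 and 625 in AmcKO. MUT and GcKO lay below WT and below AmcKO in every library. The log2 fold change was -0.77 ± 0.17 in MUT (adjusted p = 0.00572, limma) and -0.83 ± 0.17 in GcKO (0.00372), and -0.30 ± 0.17 in AmcKO (0.404). The direction depended on scaling, since Ccnb1 was 0.14 higher in MUT and 0.10 higher in GcKO (log2) on quantile-normalized values. A share of 29.4% of the 100-nt stretches of the Ccnb1 transcript also occurs in 4 other annotated genes, pseudogenes among them, and how such reads were assigned is not stated.

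Cyclin B2 is the partner that can stand in for cyclin B1, and its transcript did not pass the test in any group. Ccnb2 (chr9:70407692-70421547, reverse strand) had 91.8, 123 and 133 FPKM in WT, 106, 99.9 and 101 in MUT, 94.5, 111 and 130 in GcKO and 126, 87.0 and 119 in AmcKO. The groups overlapped throughout. Its log2 fold change was -0.16 ± 0.19 in MUT (adjusted p = 0.586, limma), -0.04 ± 0.19 in GcKO (0.917) and -0.07 ± 0.19 in AmcKO (0.908). The 95% interval in MUT ran from -0.60 to 0.28, and the difference between the cyclin genes is given below as their ratio.

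The small subunits CKS1 and CKS2 bind CDK and help it to engage its substrates, and mice without CKS2 have oocytes that stop in the first meiotic division. Their mRNAs were the most abundant of the members in each group by mean FPKM, and both were called lower in MUT and GcKO as deposited. Cks1b (chr3:89415472-89418383, reverse strand) had 3300, 2989 and 3162 FPKM in WT, 1606, 1542 and 1313 in MUT, 895, 1466 and 1475 in GcKO and 2444, 2973 and 2113 in AmcKO. Cks2 (chr13:51645232-51650660, forward strand) had 2950, 2837 and 3392 FPKM in WT, 1298, 1209 and 1265 in MUT, 1068, 1321 and 1783 in GcKO and 1979, 2775 and 1757 in AmcKO. All MUT and GcKO values of both genes lay below all WT values, and so did all AmcKO values, which overlapped GcKO for Cks2. The log2 fold change of Cks1b was -1.09 ± 0.20 in MUT (adjusted p = 0.00170, limma) and -1.34 ± 0.20 in GcKO (4.4e-04). That of Cks2 was -1.28 ± 0.20 in MUT (adjusted p = 6.7e-04, limma) and -1.16 ± 0.20 in GcKO (0.00120). In AmcKO they were -0.34 ± 0.20 and -0.52 ± 0.20 (adjusted p = 0.420 and 0.242, limma). On quantile-normalized values Cks1b was 0.15 higher in MUT and Cks2 0.01 higher in GcKO (log2), and neither passed the test. For Cks2, 23.8% of the 100-nt stretches also occur in 3 other annotated genes, and for Cks1b none do.

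**Figure D2:**
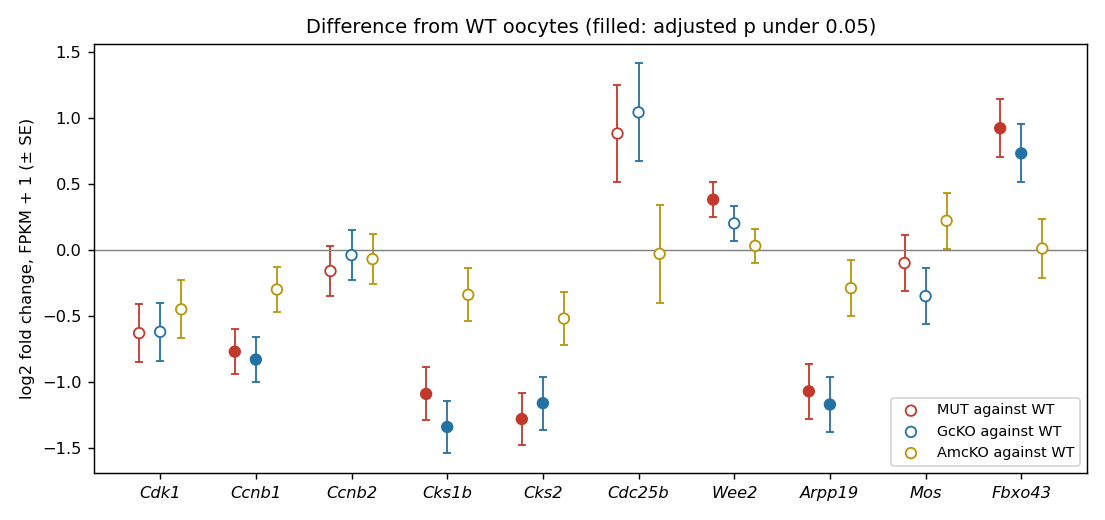
Log2 fold change of FPKM + 1 against WT (vertical axis) for each gene (horizontal axis), as deposited, for MUT, GcKO and AmcKO with 3 libraries a group. Bars are standard errors from limma and filled points have an adjusted p under 0.05; filled points stand at -0.77 to -1.34 for Ccnb1, Cks1b, Cks2 and Arpp19 and at 0.38 to 0.92 for Wee2 and Fbxo43, signs that turn for Ccnb1, Cks1b and Cks2 under some scalings.

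Neither regulator of the inhibitory phosphate on CDK1 was called lower. Cdc25b (chr2:131186949-131198497, forward strand), the phosphatase that starts meiotic resumption in mouse oocytes, was low, with 1.13, 0.639 and 1.10 FPKM in WT, 3.38, 2.16 and 2.33 in MUT, 4.87, 3.47 and 1.44 in GcKO and 1.08, 0.340 and 1.46 in AmcKO. All MUT and GcKO values lay above all WT values. The log2 fold change was 0.88 ± 0.37 in MUT (adjusted p = 0.106, limma), 1.04 ± 0.37 in GcKO (0.0608) and -0.03 ± 0.37 in AmcKO (1.00), so none passed. Of the 6 fits in GcKO that leave out a library, 1 passed, without GcKO replicate 3 (adjusted p = 0.0152, limma). The largest adjusted p of these fits was 0.226, and in MUT 0 of 6 passed. At this level few fragments lie behind a value, and 1 fragment was worth 2.28 to 2.66 times as much FPKM in WT as in MUT replicate 2, against 0.889 to 1.48 times in the other groups. The locus in the deposited table, chr2:131127410-131604824, is far wider than the annotated gene, so the value may include other transcripts.

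Wee2 (chr6:40439088-40466813, forward strand), the kinase that opposes CDC25B in the prophase oocyte, had 120, 115 and 102 FPKM in WT, 147, 150 and 143 in MUT, 127, 130 and 130 in GcKO and 119, 110 and 116 in AmcKO. MUT and GcKO lay above WT in all libraries, MUT also lay above GcKO, and AmcKO overlapped WT. The log2 fold change was 0.38 ± 0.13 in MUT (adjusted p = 0.0484, limma), 0.20 ± 0.13 in GcKO (0.291) and 0.03 ± 0.13 in AmcKO (0.939). The call in MUT was lost without WT replicate 5 or 6, or without MUT replicate 1, 2 or 3, with adjusted p from 0.0267 to 0.0868 over the 6 fits that leave out a library.

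Arpp19 (chr9:75037614-75060313, forward strand), whose product inhibits PP2A-B55 once the kinase Greatwall has phosphorylated it, fell in MUT and GcKO oocytes. It had 223, 195 and 212 FPKM in WT, 112, 92.4 and 95.2 in MUT, 65.4, 92.4 and 131 in GcKO and 172, 187 and 158 in AmcKO. The MUT and GcKO values lay below all WT and all AmcKO values. The log2 fold change was -1.07 ± 0.21 in MUT (adjusted p = 0.00260, limma), -1.17 ± 0.21 in GcKO (0.00141) and -0.29 ± 0.21 in AmcKO (0.524). With libraries set to the same FPKM sum the calls were lost, at -0.08 ± 0.14 in MUT (adjusted p = 0.680, limma) and -0.14 ± 0.14 in GcKO (0.431), and on quantile-normalized values the call in MUT was lost (-0.50 ± 0.16, 0.0587) while that in GcKO was not (-0.59 ± 0.16, 0.0300).

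Of the transcripts that act on metaphase II arrest, Fbxo43 passed the test and Mos did not. Mos (chr4:3870657-3872105, reverse strand), the kinase that switches on the MAPK cascade, had 1448, 1125 and 942 FPKM in WT, 1001, 1238 and 1006 in MUT, 678, 1198 and 917 in GcKO and 1466, 1144 and 1443 in AmcKO. The groups overlapped, with log2 differences from WT of -0.10 ± 0.21 in MUT (adjusted p = 0.784, limma), -0.35 ± 0.21 in GcKO (0.275) and 0.22 ± 0.21 in AmcKO (0.638). Fbxo43 (chr15:36150060-36164884, reverse strand), the APC/C inhibitor that holds the egg in metaphase II, had 15.4, 11.7 and 10.5 FPKM in WT, 20.5, 28.2 and 24.8 in MUT, 20.8, 22.9 and 19.9 in GcKO and 12.2, 9.73 and 16.3 in AmcKO. All MUT and GcKO values lay above all WT and all AmcKO values. Fbxo43 rose by a log2 fold change of 0.92 ± 0.22 in MUT (adjusted p = 0.0109, limma) and 0.73 ± 0.22 in GcKO (0.0347), and stood at 0.01 ± 0.22 in AmcKO (1.00). The call in MUT was lost without MUT replicate 2 (adjusted p = 0.0511), and the call in GcKO without WT replicate 5 or 6 or any 1 GcKO library (up to 0.0978).

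Among the called members, those that fell had a higher mean FPKM over the 12 libraries than those that rose. Arpp19, which fell, and Wee2, which rose in MUT, were close, at 144.7 and 125.7 FPKM. Abundant transcripts as a whole were lower in MUT and GcKO libraries. A loess curve of the difference on mean abundance lay at -0.89 for transcripts as abundant as Ccnb1, -1.17 for Cks1b, -1.15 for Cks2, -1.04 for Mos and -0.56 for Arpp19 in MUT against WT (log2), and at 0.05 for Fbxo43. With this curve removed, Ccnb1 stood at 0.12, Cks1b at 0.08, Cks2 at -0.13, Arpp19 at -0.51, Wee2 at 0.92, Mos at 0.94 and Fbxo43 at 0.87 in MUT. In MUT 1 member was then called lower and 3 higher, beside 846 lower and 710 higher of 11233 genes, and in GcKO 1 lower and 2 higher, beside 793 and 647. Mos, which overlapped WT as deposited, lay above the curve at its abundance. For Cdk1, which was not called, the curve lay at -0.04 in MUT, and Cdk1 stood at -0.59 with it removed. The part of the library-wide differences in these results was not tested.

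**Figure D3:**
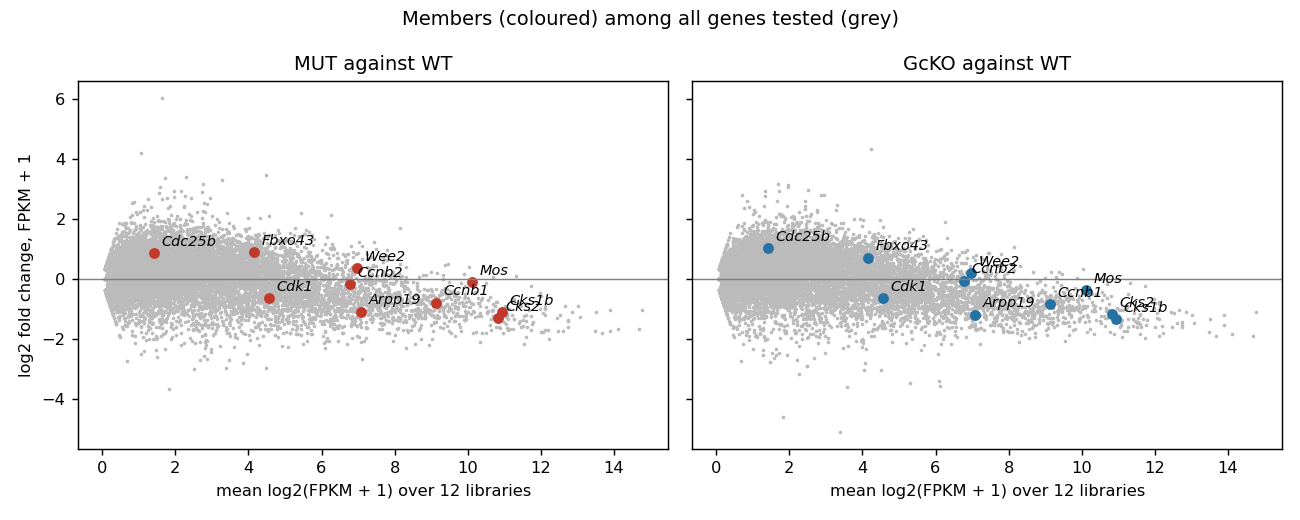
Log2 fold change of FPKM + 1 as deposited (vertical axis) against mean log2(FPKM + 1) over 12 libraries (horizontal axis) for MUT against WT and GcKO against WT, with all 11233 genes tested in grey and the 10 genes in colour. The cloud bends below 0 at high abundance, where Cks1b, Cks2 and Ccnb1 lie within it, while Mos in MUT, at -0.10, lies along its upper part.

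Setting all libraries to the same FPKM sum shifted the median of all genes from 0.12 to 0.70 in MUT and to 0.73 in GcKO against WT. On that scale Ccnb1 stood at 0.22 and 0.21, Ccnb2 at 0.83 and 0.99, Mos at 0.90 and 0.69, Wee2 at 1.37 and 1.23 and Fbxo43 at 1.85 and 1.70, so that Ccnb1 lay below the median of all genes although its sign turned. On that scale 1 member was called lower and 5 higher in each comparison, beside 253 genes lower and 4641 higher of 11233 in MUT, and 241 and 4769 in GcKO. On quantile-normalized values 0 members were called lower and 3 higher in MUT, beside 720 and 753 genes, and 1 lower and 2 higher in GcKO, beside 665 and 691. Under either scaling Fbxo43 lay above WT, and Arpp19 and Cks2 in MUT below it.

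**Figure D4:**
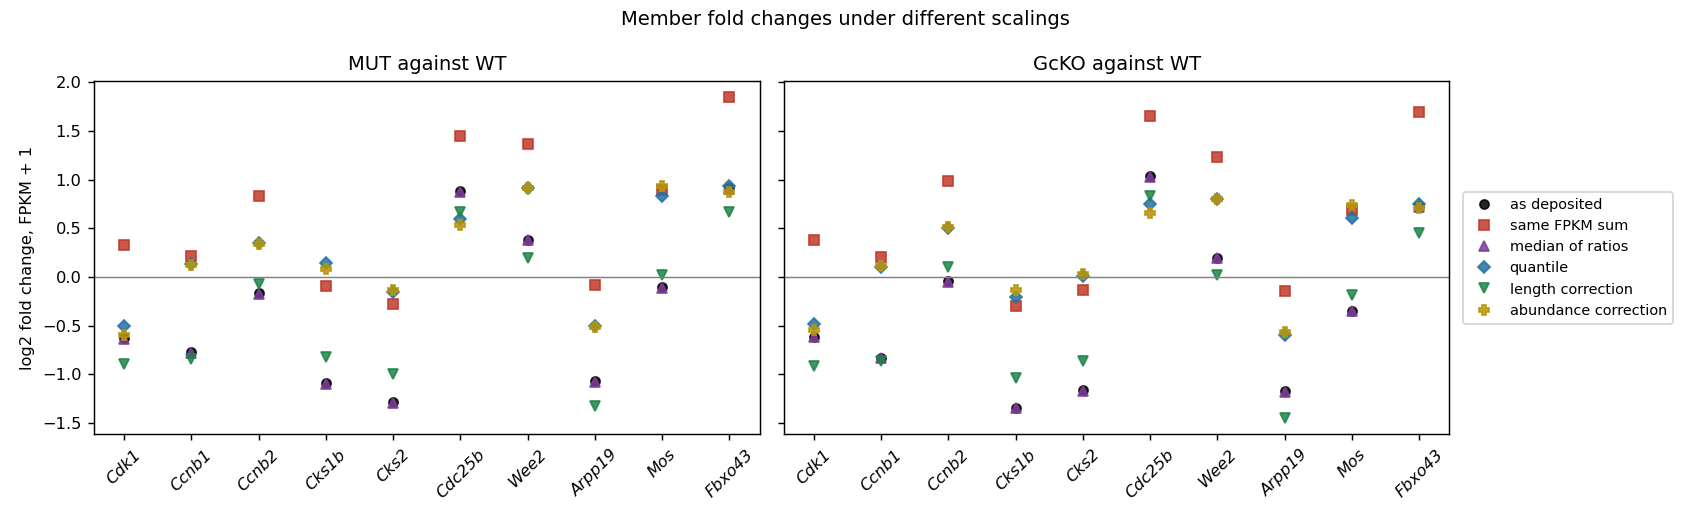
Log2 fold change of FPKM + 1 (vertical axis) of each gene (horizontal axis) as deposited and under 5 other scalings or corrections, for MUT against WT on the left and GcKO against WT on the right. Fbxo43 and Cdc25b stay above 0 and Arpp19 stays below 0 under all of them, while Ccnb1, as deposited at -0.77 and -0.83, turns to 0.22 and 0.21 with the same FPKM sum.

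Ratios of 2 members within a library do not depend on a common scaling factor, apart from the pseudocount. They still carry a library difference that varies with abundance, such as the curve above, where the 2 genes differ in level. That curve lay at 0.05 for Fbxo43 and -0.04 for Cdk1 in MUT. The ratios were not corrected for it. Ratios were compared with WT by an exact two-sided permutation test, which for 3 against 3 libraries cannot go below p = 0.10, and the 15 comparisons were adjusted together. The log2 ratio of Fbxo43 to Cdk1 was -1.04, -1.22 and -1.50 in WT, 0.21, 0.55 and 0.12 in MUT, 0.53, -0.01 and -0.23 in GcKO and -0.53, -1.36 and -0.48 in AmcKO. It was higher in every MUT and GcKO library than in any WT library, by 1.55 and 1.35 (exact permutation p = 0.10 each, adjusted 0.30), or 2.92 and 2.54 times as a ratio, and in AmcKO by 0.46 (p = 0.30, exact permutation, adjusted 0.41).

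The ratio of Ccnb2 to Ccnb1 rose out of the WT range in the same groups. Its log2 value was -3.31, -2.58 and -2.40 in WT, -2.04, -2.26 and -2.15 in MUT, -1.83, -2.12 and -1.98 in GcKO and -2.40, -2.78 and -2.39 in AmcKO. The difference from WT was 0.61 in MUT and 0.79 in GcKO (exact permutation p = 0.10 each, adjusted 0.30), and 0.24 in AmcKO (p = 0.60, exact permutation, adjusted 0.64). WT replicate 4 was the lowest of all. The abundance curve lay at -0.50 for Ccnb2 and -0.89 for Ccnb1 in MUT, and at -0.56 and -0.94 in GcKO. Its part in this ratio was not tested.

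The ratio of Wee2, the inhibitor, to Cdc25b, the activator, was 5.83, 6.14 and 5.62 on the log2 scale in WT, 5.08, 5.58 and 5.44 in MUT, 4.45, 4.87 and 5.75 in GcKO and 5.85, 6.37 and 5.57 in AmcKO. It lay below WT in MUT, by -0.50 (exact permutation p = 0.10, adjusted 0.30), and overlapped WT in GcKO, at -0.84 (p = 0.20, exact permutation, adjusted 0.33). The abundance curve lay at -0.54 for Wee2 and 0.34 for Cdc25b in MUT, and at -0.60 and 0.38 in GcKO. With it removed these genes stood at 0.92 and 0.54 in MUT, and at 0.80 and 0.66 in GcKO. Its part in the ratio was not tested. Cdc25b also lay near the pseudocount in WT, with few fragments behind its values and a wide locus. The ratio of Ccnb1 to Cdk1 overlapped between the groups, with a WT range of 4.43 to 4.78, a MUT range of 4.25 to 4.60, a GcKO range of 4.34 to 4.49 and an AmcKO range of 4.46 to 5.14. The ratio of Mos to Cdk1, which ran from 4.85 to 5.43 in WT, ran from 5.41 to 5.95 in MUT, from 5.23 to 5.63 in GcKO and from 5.38 to 6.27 in AmcKO, with differences from WT of 0.53, 0.27 and 0.67 (p = 0.20, 0.30 and 0.20, exact permutation, adjusted 0.33, 0.41 and 0.33).

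**Figure D5:**
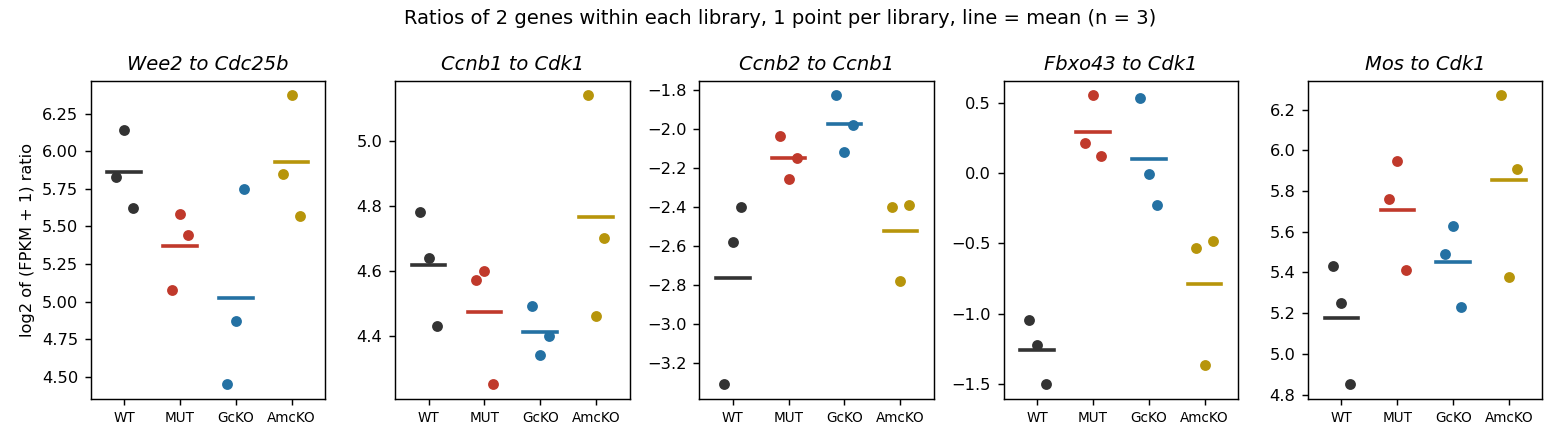
Log2 ratio of FPKM + 1 of 2 genes within each library (vertical axis, a scale of its own for each ratio, not from 0), with 1 point per library, the mean of 3 as a line, and the groups along the horizontal axis. For Fbxo43 to Cdk1 the MUT and GcKO points, from -0.23 to 0.55, lie above the WT points, from -1.50 to -1.04, and for Ccnb1 to Cdk1 the groups overlap.

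Set against AmcKO oocytes, whose females share the floxed allele with GcKO, fewer members passed. In MUT 3 were lower than in AmcKO (Cks1b, -0.75 ± 0.20; Cks2, -0.76 ± 0.20; Arpp19, -0.78 ± 0.21) and Fbxo43 was higher (0.91 ± 0.22), with adjusted p of 0.0270 to 0.0364 by limma, beside 5.07% of all genes lower and 1.42% higher (6.49% called in all). In GcKO Cks1b, at 0.502 times AmcKO (95% interval of the log2 fold change -1.45 to -0.54, adjusted p = 0.00964, limma), and Arpp19 (-0.89 ± 0.21, 0.0222) were lower than in AmcKO, beside 4.79% of all genes lower and 0.668% higher (5.46% in all). Each of these counts depended on single libraries. In MUT against AmcKO, 1 call was left without MUT replicate 1, 0 without MUT replicate 2 or 3 or AmcKO replicate 4 or 5, and 3 without AmcKO replicate 6. In GcKO against AmcKO, 1 was left without GcKO replicate 1 or 2, 0 without AmcKO replicate 4 or 5, 3 without AmcKO replicate 6, and 5 were called without GcKO replicate 3.

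Between the oocyte-deleted GcKO and the whole-body MUT oocytes, the member differences ran from -0.25 for Cks1b and Mos to 0.16 for Cdc25b on the log2 scale, with 95% intervals such as -0.50 to 0.52 for Cdk1 and -0.45 to 0.33 for Ccnb1. Differences of that size were not detectable with 3 libraries a group.

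Of 40 other genes of the pathway, 37 were tested, and Ccna1 and Ppp2cb were listed at 0 and Rps6ka2 was under 1 FPKM. In MUT against WT 3 of them were lower and 5 were higher (median log2 fold change 0.38), beside 11.3% lower and 9.46% higher among all genes. In GcKO against WT 3 were lower and 3 were higher (median 0.44), beside 11.4% and 8.71% among all genes. The median over all genes was 0.12 in each comparison. None passed in AmcKO against WT or in GcKO against MUT by limma, with 5 and 3 at an unadjusted p under 0.05. In MUT against AmcKO 1 was higher (Map2k1), and in GcKO against AmcKO 1 was lower (Chek1).

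Called lower in each of these comparisons, which share the WT libraries, were Ccnh, Cdk7 and Chek1. CDK7 and cyclin H form the kinase that phosphorylates CDK1 on its activating site. Ccnh had 11.0, 21.7 and 14.2 FPKM in WT, 5.05, 5.47 and 3.30 in MUT and 6.75, 6.67 and 5.85 in GcKO, and fell by 1.54 ± 0.26 and 1.11 ± 0.26 on the log2 scale (adjusted p = 0.00125 and 0.00902, limma). Cdk7 had 4.27, 4.59 and 7.05 FPKM in WT, 2.45, 1.72 and 1.86 in MUT and 2.19, 2.70 and 2.58 in GcKO, and fell by 1.05 ± 0.27 and 0.83 ± 0.27 (adjusted p = 0.0160 and 0.0473, limma). All MUT and GcKO values of both genes lay below all WT values.

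Chek1, the checkpoint kinase that restrains CDC25, was the most precisely measured of them. It had 267, 255 and 254 FPKM in WT, 145, 124 and 139 in MUT, 105, 103 and 129 in GcKO and 196, 211 and 172 in AmcKO, so that the 4 groups were apart except MUT and GcKO. It fell by 0.93 ± 0.14 in MUT and 1.20 ± 0.14 in GcKO on the log2 scale (adjusted p = 6.5e-04 and 1.5e-04, limma). Values of the pathway genes under other scalings are not reported here. For Arpp19, with a mean of 210.2 FPKM in WT beside 258.9 for Chek1, the abundance curve lay at -0.56 in MUT and -0.61 in GcKO. Cdc25a, another phosphatase of CDK1, went up, with 3.72, 0.525 and 4.96 FPKM in WT, 8.76, 8.68 and 9.32 in MUT and 12.2, 10.2 and 6.52 in GcKO, and a log2 fold change of 1.50 ± 0.42 and 1.56 ± 0.42 (adjusted p = 0.0218 and 0.0176, limma).

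Of 7 tested genes of the Greatwall and PP2A-B55 branch, the scaffold Ppp2r1a (1.07 ± 0.32) and the B55 subunit Ppp2r2d (0.80 ± 0.24) passed in MUT. None passed in GcKO, where these genes stood at 0.91 ± 0.32 and 0.67 ± 0.24 (adjusted p = 0.0570 and 0.0649, limma). Ppp2r1a was low, at 2.66 to 5.48 FPKM in WT. Of 6 tested genes of the MAPK branch below MOS, Map2k1 passed in MUT (0.59 ± 0.16) and Mapk3 in GcKO (0.74 ± 0.23). Map2k1 stood at 0.45 ± 0.16 in GcKO and Mapk3 at 0.50 ± 0.23 in MUT (adjusted p = 0.0593 and 0.151, limma). Of 8 genes for APC/C control and exit from metaphase II, Camk2g, the calmodulin kinase that ends the arrest at fertilization, passed in GcKO (0.89 ± 0.28). In MUT Camk2g stood at 0.71 ± 0.28 (adjusted p = 0.0843, limma). None of the 5 tested genes for other cyclins and their kinase passed. Plk1, an activator that was named after its values were seen, passed in MUT (0.91 ± 0.26) and stood at 0.70 ± 0.26 in GcKO (adjusted p = 0.0718, limma).

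By the root mean square difference between centred log2(FPKM + 1) values over the 12 libraries, the genes most like Cdk1 among 4750 with a mean FPKM of at least 5 included Aptx (0.104), Pcbd2 (0.132), Mrpl15 (0.140) and Cpsf4l (0.142). Aptx, for instance, had 19.98 ± 3.09 FPKM in WT, 11.6 ± 1.82 in MUT, 12.6 ± 3.48 in GcKO and 13.2 ± 2.34 in AmcKO (SD, n = 3). Of the members, Ccnb1 was the nearest to Cdk1 (0.227) and Cdc25b the farthest (0.871).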

How the data were processed

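RNA-Seq was performed by the authors on 12 Smart-seq2 libraries of GV oocytes, 3 each of WT, MUT, GcKO and AmcKO, grouped and numbered by the labels. The authors aligned trimmed reads to mm10 with TopHat2 2.0.13 and deposited 1 FPKM column per library from Cufflinks 2.2.1 for 24255 genes; the gene annotation is not given in the sources used here. FPKM divides by length and by mapped fragments, and the counts behind a value are unknown. Cuffnorm and Cuffdiff are also named in the processing, and whether they scaled the libraries to one another is not stated. Without such scaling, a change in abundant transcripts shifts all others. Median-of-ratios scaling left the median over all genes at 0.12 in MUT and in GcKO against WT. The 18 columns of the authors' own comparisons (fold changes, p-values, q-values) were not used. The 10 genes and the lists were chosen with earlier results of these data known.

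Values were tested as log2(FPKM + 1) with limma 3.58.1 (R 4.3.3), with a variance trend, on 11233 genes with at least 1 FPKM in at least 1 library, in 1 fit of 12 libraries with 8 residual degrees of freedom, 6 contrasts and Benjamini-Hochberg adjustment over all genes (called at 0.05). Fold changes on this scale understate those of low genes. Intervals of 95% are not adjusted. Ratios used scipy 1.17.1. Named genes were the 10 members, Dpagt1, pathway genes called in MUT or GcKO against WT (at most 3 a role, by size in MUT) and the 5 most like Cdk1, of which 1 is not reported here. On simulated data 140 of 200 changed genes were recovered in MUT against WT (89.5% of 4-fold and 48.4% of 2-fold changes), with 5 false calls. Coordinates and transcript lengths came from GENCODE (GRCm38). The alternatives were a pseudocount of 0.1, no filter, a mean FPKM of at least 5, scaling to the same FPKM sum, quantile normalization, median-of-ratios scaling, no variance trend, the 2 groups alone, a replicate block, each library left out, a fold change over 2 and an adjusted p under 0.01. Corrections for transcript length (known for 98.9% of the tested genes) and for abundance, by loess, were chosen after seeing the data.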

Additional observations from a re-analysis of the deposited data

How the results depend on the processing

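As deposited, 6 members were called in MUT and 5 in GcKO against WT, 4 in MUT and 2 in GcKO against AmcKO, and 0 in AmcKO against WT and GcKO against MUT by limma; the counts of 0 stayed 0 under every alternative run. With quantile normalization the counts were 3 in MUT and 3 in GcKO against WT, and 2 in MUT and 1 in GcKO against AmcKO. With the abundance correction they were 3 in GcKO against WT, and 2 in MUT and 1 in GcKO against AmcKO. With a fold change over 2 they were 3 and 3 against WT, and 0 and 0 against AmcKO. With the 2 groups alone they were 3 in GcKO against WT and 0 in GcKO against AmcKO. Against AmcKO they were also 1 in MUT with no filter, 0 and 0 with no variance trend, 0 in MUT and 1 in GcKO at an adjusted p under 0.01, and, in GcKO, 5 with a mean FPKM of at least 5 and 4 with the same FPKM sum. Leaving out 1 library at a time gave 4 to 6 in MUT and 4 to 6 in GcKO against WT, and 0 to 3 in MUT and 0 to 5 in GcKO against AmcKO.

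The sign turned for these log2 fold changes. With the same FPKM sum, against WT, Ccnb1 was 0.22 in MUT and 0.21 in GcKO, Ccnb2 0.83 and 0.99, Mos 0.90 and 0.69, and against AmcKO Ccnb2 was 0.60 in MUT. With quantile normalization, against WT, Ccnb1 was 0.14 in MUT and 0.10 in GcKO, Cks1b 0.15 and Mos 0.83 in MUT, Cks2 0.01 in GcKO, and against AmcKO Cks1b was 0.10 in MUT. With the abundance correction, against WT, Ccnb1 was 0.12 in MUT and 0.11 in GcKO, Cks1b 0.08 in MUT, Cks2 0.03 in GcKO, Mos 0.94 and 0.74, and against AmcKO Cks1b was 0.05 and Cks2 0.03 in MUT. The cause was not tested. Of 1094 member fold changes recomputed, 21 turned in this way and 65 more changed sign with neither value called. In AmcKO against WT, with 1 library left out, the log2 ratio difference of Wee2 to Cdc25b ran from -0.15 to 0.24, that of Ccnb1 to Cdk1 from -0.04 to 0.31 and that of Ccnb2 to Ccnb1 from -0.04 to 0.42. With the length correction Cdk1 passed in both groups (-0.89 and -0.91) and Fbxo43 and Wee2 did not.

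Same-numbered libraries did not deviate together (correlations of -0.04 to 0.04), so the numbers were not taken as pairs. WT and AmcKO libraries are numbered 4 to 6, and MUT and GcKO libraries 1 to 3. A difference in handling that follows these numbers cannot be told apart from genotype in MUT or GcKO against WT or AmcKO. The replicate block covers only AmcKO against WT and GcKO against MUT. With the replicate block 0 members were called in AmcKO against WT and 0 in GcKO against MUT, and calls over all genes went from 24 to 9 and from 23 to 9. The self-test recovered 48.4% of 2-fold changes, so members changed by less can be missed.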
